A study of Mus musculus with 8 samples.

Results

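The 9 genes described here encode the receptors, signal transducers and best known target genes of the Hedgehog pathway: the targets Gli1, Ptch1 and Hhip, the co-receptors Boc, Cdon and Gas1, and the transducers Smo, Gli2 and Gli3. They were picked by name out of the 39179 genes in the count tables, and all 9 were among the 14757 genes with enough counts to be tested. Their difference between the groups was known when they were picked, so their values in that contrast are given as a description. RNA was sequenced from astrocytes, a glial cell type, sorted from mouse spinal cord at postnatal days 12 to 14. The 4 control libraries (S1, S2, S6 and S7) came from cre-negative mice, which the labels call wild-type. The 4 cKO libraries (S3, S4, S5 and S8) came from mice with both Kir4.1 alleles floxed and an Aldh1l1-cre transgene, a conditional knockout of the potassium channel Kir4.1, which is encoded by Kcnj10. All 8 came from animals of a mixed swiss-webster strain carrying the Aldh1l1-GFP reporter, which was the basis of the sort. The same Aldh1l1 regulatory region therefore drives the reporter in both groups and the recombinase in cKO. The labels give each library as a biological replicate and do not say whether animals were pooled or whether controls carried floxed alleles.

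In Hedgehog signalling a secreted ligand such as Sonic hedgehog binds Ptch1 together with Boc, Cdon or Gas1, which ends the inhibition of Smo by Ptch1. Active Smo turns the transcription factors Gli2 and Gli3 from repressors into activators, and these switch on Gli1, a further activator, and Ptch1 and Hhip, which bind ligand and dampen the signal. Boc, Cdon and Gas1 are known to be repressed by the pathway in the embryonic neural tube. In the mature nervous system Gli1 marks astrocytes that receive Sonic hedgehog from neurons.

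Of the 3 targets, 2 were called lower in cKO (adjusted p under 0.05, edgeR), where 0.115% of all genes tested were. Both calls were lost in some fits with 1 library left out. Gli1 and Hhip were 3.62-fold and 4.93-fold lower in cKO, while Ptch1, which was by far the most abundant of the 9, differed by 1.08-fold. Boc, the most abundant co-receptor, was 1.93-fold higher in cKO, with no overlap between the groups, as were 3.39% of all genes tested. It was not past the same threshold (adjusted p of 0.0742, edgeR). Smo and Gli3 differed by less than 1 standard error, and Gli2 was 1.39-fold higher with overlapping libraries. Values are CPM (counts scaled to a fixed effective library size) unless another unit is named. Values by library are listed in the order S1, S2, S6, S7 for controls, then S3, S4, S5, S8 for cKO.

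The upstream sequences of Hhip and Ptch1 are shown because these are a target that was lower in cKO and a target that was not. Each is the 250 bases before the RefSeq gene start on GRCm38.p6, read on the gene's own minus strand. That of Hhip is chr8:80058009-80058258 and that of Ptch1 chr13:63565736-63565985, which lies inside the longer Ptch1 gene of the GENCODE annotation but covers none of its exons. Capitals mark the stretch with the fewest mismatches to the GLI consensus GACCACCCA on either strand. Where several stretches tie, the first as printed is marked.
Hhip: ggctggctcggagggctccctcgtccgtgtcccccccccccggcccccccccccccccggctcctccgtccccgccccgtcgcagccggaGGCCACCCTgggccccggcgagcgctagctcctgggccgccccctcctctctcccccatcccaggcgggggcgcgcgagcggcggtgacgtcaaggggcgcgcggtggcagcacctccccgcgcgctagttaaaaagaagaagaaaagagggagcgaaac
Ptch1: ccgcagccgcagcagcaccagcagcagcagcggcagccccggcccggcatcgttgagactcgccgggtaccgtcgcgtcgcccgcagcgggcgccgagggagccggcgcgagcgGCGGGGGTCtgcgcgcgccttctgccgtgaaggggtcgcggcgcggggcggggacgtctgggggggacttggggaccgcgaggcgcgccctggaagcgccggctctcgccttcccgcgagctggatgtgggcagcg
The consensus itself was in neither. The marked stretch began 160 bases before the start of Hhip, with 2 mismatches, and 136 bases before the start of Ptch1, with 3 mismatches on the opposite strand. Another Ptch1 stretch, closer to the start, had as many mismatches, so the marked position is not the only one. Of 32851 mouse upstream windows of this length, 0.225% held the exact consensus, 51.8% a match with at most 2 mismatches and 98.6% one with at most 3. The whole windows also take in 50 bases after the start. In the 7 members with a window in the set used, they held neither the consensus nor the looser GACCNCCCA, against 0.253% and 0.977% of all windows. A window without these letters says nothing on binding elsewhere. Windows were matched for Ptch1, Hhip, Cdon, Gas1, Smo, Gli2 and Gli3, and the set used held none for Gli1 or Boc. The Cdon window lies inside the Cdon gene of the GENCODE annotation and overlaps its exons. The upstream stretch was 76.0% G and C with 28 CpG dinucleotides in Hhip, and 78.4% with 41 in Ptch1.

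Per unit of transcript length, the authors' FPKM values set the order of the 9 genes within a group. In controls Ptch1 led with 151 FPKM ± 24.2 (SD, n = 4). Gli2 and Gli3 followed at 40.2 ± 3.90 and 37.8 ± 6.48 (SD, n = 4 each), with ranges that overlapped each other but not that of Ptch1. Boc and Smo, at 24.2 ± 4.32 and 22.3 ± 4.03 FPKM (SD, n = 4 each), could not be ordered, since their ranges overlapped. Gli1 at 13.7 ± 3.49, Hhip at 13.5 ± 3.55 and Gas1 at 11.5 ± 2.49 FPKM (SD, n = 4 each) came next, with neighbouring ranges overlapping and that of Gli1 also overlapping Smo. Cdon was lowest at 0.72 ± 0.35 FPKM (SD, n = 4), below the range of Gas1. In cKO the order changed: Boc, at 46.2 ± 10.7 FPKM (SD, n = 4), stood beside Gli2 and Gli3, and Gli1 and Hhip, at 3.48 ± 1.16 and 2.60 ± 1.34 FPKM (SD, n = 4 each), both lay under the lowest Gas1 value of 10.4 FPKM.

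**Figure D1:**
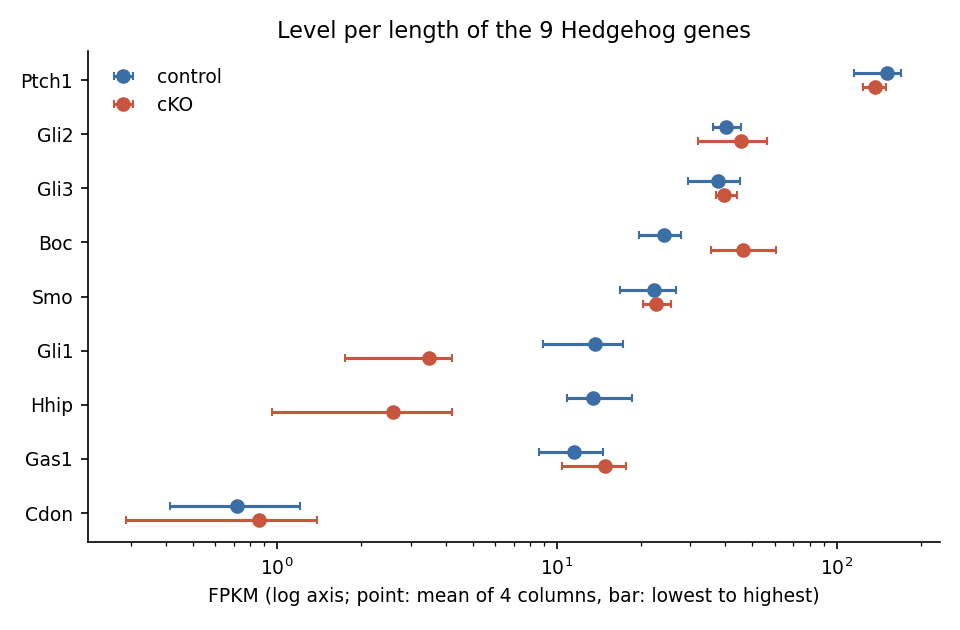
FPKM of the 9 genes on a log axis, in control (blue) and cKO (red); points are means of the 4 values of a group and bars run from the lowest to the highest. Only Gli1, Hhip and Boc have bars that do not overlap between the groups, and Ptch1 is highest in both.

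Kcnj10, the targeted gene, was at 1820 CPM ± 468 in control and 34.0 ± 4.64 in cKO libraries (SD, n = 4 each), and every cKO library was below every control. Gene reads numbered 13892736 to 25065686 a library. Markers of astrocytes (12 genes, none at 0 in any library) summed to 16980 to 25060 CPM in controls and 19761 to 24255 in cKO, and overlapped between the groups. Of the 12, 7 had a fold change above 0 and 5 below, and 2 passed the threshold. These 2 were Aqp4 and Aldh1l1, whose regulatory region drives the reporter and the Cre. They were higher in cKO by 1.09 and 1.01 on the log2 scale (adjusted p of 0.0243 and 0.0179, edgeR). Across all genes, 47 of 14757 (0.318%) passed an adjusted p of 0.05 in edgeR's quasi-likelihood test, 30 higher and 17 lower. Scaled to library totals alone, 48 were higher and 14 lower. For 6.34% of genes the 2 ranges had no overlap.

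Of the 9 Hedgehog genes, 2 were among the genes called lower in cKO (Gli1 and Hhip), where 0.115% of all genes tested were, and 0 among those called higher, where 0.203% were. Groups did not overlap for 3 (Gli1, Hhip and Boc), against 6.34% of all genes (2.94% lower and 3.39% higher in cKO). Because the genes were picked with this contrast in view, nothing is read from these shares. The median log2 fold change was −1.85 over the 3 targets, 0.78 over the 3 co-receptors and 0.04 over the 3 transducers, against −0.02 over all genes tested. With 3 genes in each class, these medians are the single values of Gli1, Cdon and Smo. Ptch1, also a target, was at −0.11, and the value of Cdon had a standard error of 0.70. Both groups are bulk samples, in which fewer cells that express a gene and less RNA in each cell cannot be told apart.

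**Figure D2:**
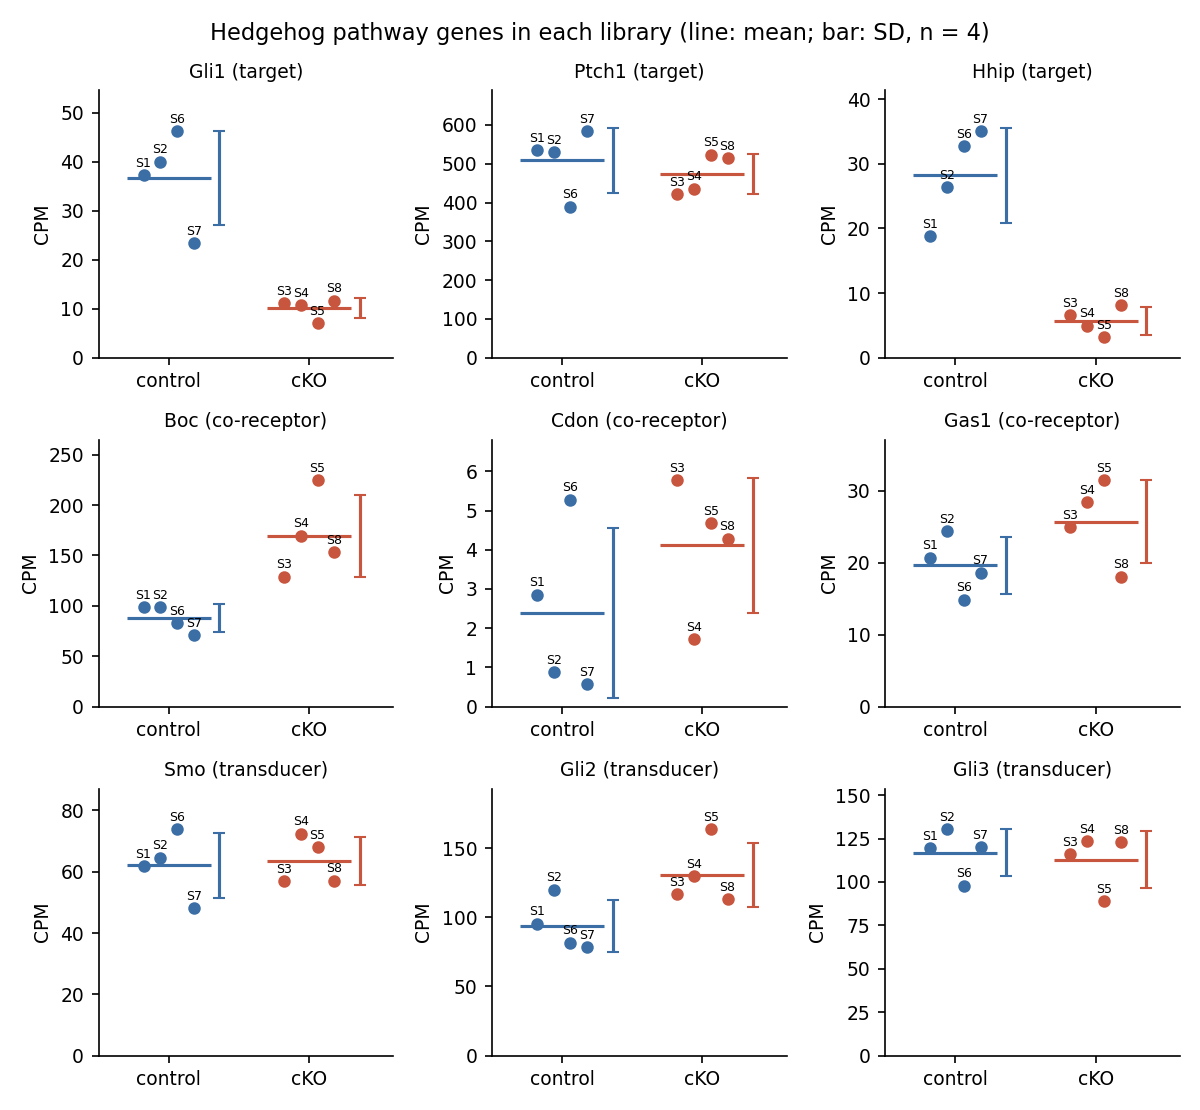
CPM of each gene in each library, control in blue and cKO in red, with the library named above its point; lines are group means and bars SD (n = 4). Gli1, Hhip and Boc separate the groups, and Ptch1, Smo and Gli3 sit at like levels. Library cKO S5 has the lowest Gli1, Hhip and Gli3 and the highest Boc, Gli2 and Gas1.

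Among the targets, Gli1 (chromosome 10, 127329882 to 127341974 on GRCm38) encodes the activator whose transcript is the usual readout of the pathway. It was at 37.3, 40.03, 46.3 and 23.4 CPM in the controls, against 11.2, 10.7, 7.01 and 11.6 CPM in cKO. The lowest control, S7, was still above the highest cKO library. These levels rest on 495 to 842 counts in controls and 123 to 272 in cKO. The mean went from 36.8 CPM ± 9.63 to 10.1 ± 2.12 (SD, n = 4 each), 27.6% of the control level, and the log2 fold change was −1.85 (SE 0.27). Gli1 shares 327 exon bases with Arhgap9 and a predicted antisense gene, and the strand setting of the counting is not given in the sources used here.

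Hhip (chromosome 8, 79965851 to 80058006) encodes a membrane protein that binds and sequesters Hedgehog ligands. Its level was 18.8, 26.4, 32.8 and 35.1 CPM in the controls, against 6.59, 4.94, 3.13 and 8.18 CPM in cKO. Every control was above every cKO library, of which S5 rested on 55 counts. The mean went from 28.2 CPM ± 7.32 to 5.71 ± 2.17 (SD, n = 4 each), and the log2 fold change was −2.30 (SE 0.33). Control libraries did not fall in the same order for both genes: S7 had the least Gli1 and the most Hhip. Hhip shares 175 exon bases with a small RNA gene on the other strand.

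Ptch1 (chromosome 13, 63508328 to 63573598), the Hedgehog receptor and itself a target, did not separate the groups. It was at 535, 530.1, 389 and 584 CPM in the controls, against 421, 435, 523 and 514 CPM in cKO. Control S6, which had the most Gli1, had the least Ptch1 of all 8 libraries. The log2 fold change was −0.11 (SE 0.16), with a 95% interval of −0.46 to 0.25. This interval does not reach the size of the Gli1 or Hhip difference. With 7086 or more counts in each library, depth did not limit this estimate.

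Counts of the other genes can also be set against those of Ptch1 inside each library. Ptch1 was taken because it was abundant and differed little in the same contrast, so the ratios describe that contrast again. For every 100 Ptch1 counts there were 4.02 to 11.9 Gli1 counts in controls and 1.34 to 2.66 in cKO. The same ratio for Hhip was 3.51 to 8.43 in controls and 0.599 to 1.59 in cKO. For Boc it was 12.1 to 21.2 in controls and 29.8 to 42.9 in cKO. The groups did not overlap in these 3 ratios, whereas that of Gli2 (13.4 to 22.6 against 22.0 to 31.3) overlapped. Boc counts per Gli1 count were 1.79 to 3.02 in controls and 11.5 to 32.0 in cKO.

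**Figure D3:**
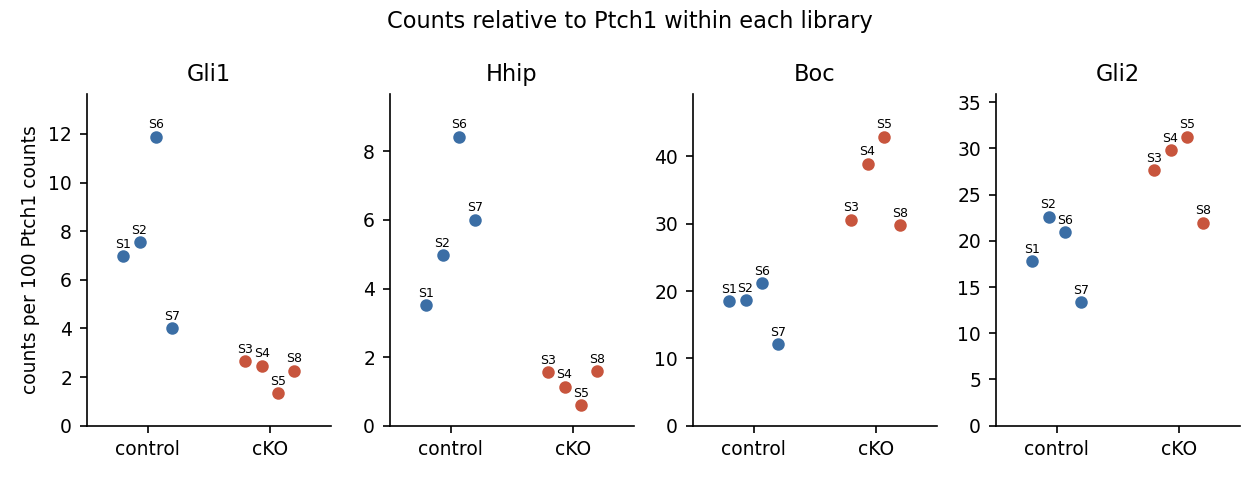
Counts of Gli1, Hhip, Boc and Gli2 for every 100 Ptch1 counts in the same library, control in blue and cKO in red. Groups do not overlap for Gli1, Hhip and Boc; for Gli2, cKO S8 (22.0) lies under control S2 (22.6).

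The co-receptors all had fold changes above 0. Boc (chromosome 16, 44485049 to 44558897), an immunoglobulin and fibronectin domain protein that presents ligand to Ptch1, was at 99.0, 98.8, 82.6 and 70.7 CPM in the controls. It was at 129, 170, 225 and 153 CPM across cKO. Every cKO library was above every control, and cKO S5 was highest. The log2 fold change was 0.95 (SE 0.19, n = 4 each). Boc was not among the genes called in edgeR with the settings used, but it was among those called in the authors' deposited table, where 2.87% of genes with an adjusted p were. Its log2 fold change in the authors' deposited table was 0.873. That is below the log2 ratio of the group means deposited with it (3110 in cKO, 1615 in control). It is therefore not the same measure as the edgeR value.

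Gas1 (chromosome 13, 60174405 to 60177365), a membrane-anchored co-receptor, ranged from 14.9 to 24.4 CPM in controls and from 18.1 to 31.5 CPM in cKO, so the groups overlapped. Its log2 fold change was 0.39 with a 95% interval of −0.15 to 0.92. It shares 589 exon bases with a noncoding gene on the other strand. Cdon (chromosome 9, 35421128 to 35507652), the close relative of Boc, was the least abundant member, with 12 to 96 counts in controls and 38 to 113 in cKO. At 0.568 to 5.27 CPM in controls and 1.72 to 5.77 CPM in cKO it overlapped, and its 95% interval of −0.74 to 2.29 on the log2 scale takes in both 0 and the value of Boc. Its highest control was 9.28-fold above its lowest.

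Smo and Gli3 were at like levels in both groups, and Gli2 was higher in cKO with overlapping libraries. Smo (chromosome 6, 29735503 to 29761365), the membrane protein that carries the signal inward, was at 48.2 to 73.9 CPM in controls and 56.9 to 72.4 CPM in cKO. Its log2 fold change was 0.04 with a 95% interval of −0.35 to 0.42. Gli3 (chromosome 13, 15463235 to 15730026), mainly a repressor in the absence of ligand, was at 97.9 to 130.4 CPM in controls and 89.0 to 124 CPM in cKO. Its fold change was −0.05 on the log2 scale (95% interval −0.40 to 0.30). Gli3 shares 188 exon bases with a noncoding transcript on the other strand. The signs of the Smo and Gli3 values changed when single libraries were left out, and that of Gli3 also with library totals. Gli2 (chromosome 1, 118834132 to 119053619), the main activator, was at 95.4, 119.96, 81.6 and 78.2 CPM in the controls, against 117, 130, 164 and 113 CPM in cKO. Control S2 was above cKO S3 and S8, and the log2 fold change was 0.48 (SE 0.18), with a 95% interval of 0.08 to 0.88. That interval is not adjusted for the number of genes tested, of which 9.81% had an unadjusted p under 0.05. Gli2 was not called (adjusted p of 0.405, edgeR's quasi-likelihood test).

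Gli1 and Hhip stayed past the threshold under each of the 6 settings that kept all 8 libraries, and Boc joined them in 4 of these. All genes were called at 2.26% by DESeq2, 0.42% with library totals, 0.359% with the looser filter and 0.71% with the stricter one. With 1 library left out, Gli1 was called in 5 of 8 fits and Hhip in 6, both of them without control S1 or S7 or without cKO S3, S5 or S8. Of the 9 genes, 0 were called without control S6 (0.106% of all genes) or without cKO S4 (0.0264%), and 1, Hhip, without control S2 (0.0907%). The sizes moved little: the log2 fold change stayed between −2.01 and −1.71 for Gli1, between −2.53 and −2.10 for Hhip and between 0.79 and 1.06 for Boc across the 8 such fits.

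**Figure D4:**
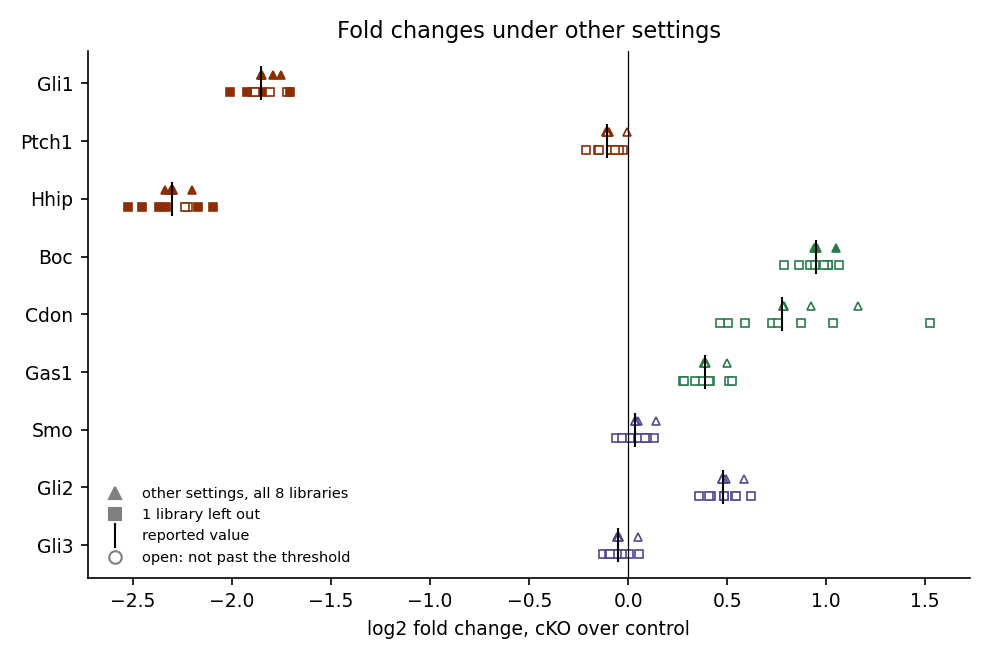
Log2 fold change of each gene under 14 other settings: triangles keep all 8 libraries, squares leave out 1, filled symbols are past an adjusted p of 0.05 and the black bar is the reported value. Gli1 and Hhip stay below −1.7 throughout, Boc stays above 0.78, and Smo and Gli3 straddle 0.

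Within a group, the libraries varied in a shared way for some members. In cKO, S5 had the lowest Gli1, Hhip and Gli3 and the highest Boc, Gli2 and Gas1 of the 4. It also had the highest Ptch1 of these libraries, at 523 CPM. After each group's mean was removed, log2 CPM of Hhip and Boc had a Pearson correlation of −0.85 over the 8 libraries, and that of Hhip and Gli2 was −0.75. Hhip and Gli1 had 0.33 and Gli1 and Ptch1 −0.69. Gli1 had only −0.16 with Boc and −0.16 with Gli2, and Ptch1 had 0.27 with Boc. These are descriptions over 8 libraries that share one scaling, and no test is attached.

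Markers of other cell types were present at low levels, and several lists were mostly lower in cKO, with summed levels that overlapped between the groups. Oligodendrocyte precursor markers (5 genes, of which 5 had a fold change below 0 and 0 were called) summed to 282 to 937 CPM in controls and 182 to 424 CPM in cKO. Fibroblast markers (6 genes, of which 5 were tested, 5 were below 0 and 0 were called) summed to 109 to 576 CPM in controls, highest in S6, and to 75.8 to 150 CPM in cKO. The fibroblast genes Col3a1, Dcn and Lum had 0 counts in control S1 and in cKO S4 and S5. Without control S6, the log2 fold change was −1.72 for Gli1 and −2.22 for Hhip. Neither was called in that fit (adjusted p of 0.0553 for each, edgeR's quasi-likelihood test). Mature oligodendrocyte markers (8 of 8 below 0, 0 called) summed to 1464 to 2929 CPM in controls and 978 to 2399 in cKO. Among single markers, Mog (−1.11), Mal (−1.61), Gad2 (−2.09), Snap25 (−0.67), Abcc9 (−0.49) and Col1a2 (−0.71) had lower log2 values in cKO with no overlap between the groups, and none of these was called. Over all genes tested, 2.94% were lower in cKO with no overlap. Neuronal markers (5 of 7 tested below 0) summed to 49.9 to 85.1 CPM in controls and 33.0 to 54.4 in cKO, endothelial markers (6 of 6 below 0) to 28.1 to 64.2 and 17.5 to 46.8 CPM, mural markers to 29.7 to 49.1 and 35.2 to 38.2 CPM, microglial markers to 10.8 to 27.2 and 8.78 to 39.1 CPM and ependymal markers to 5.64 to 26.3 and 8.26 to 25.1 CPM. Schwann cell markers reached at most 0.984 CPM. The part of these cells in the Hedgehog values was not tested.

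A wider list of 43 pathway genes was taken by role, of which 36 were tested. Of these, 0 passed in either direction by edgeR's quasi-likelihood test, where 0.318% of all genes did. At an unadjusted p under 0.05 there were 2 (Scube1 and Spop), where 9.81% of all genes were, and DESeq2 called 1, Scube1. The median log2 fold change was −0.04, against −0.02 over all genes tested.

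The ligand genes were at or near 0 in the sorted cells. Shh had 0 counts in all 8 libraries, which allows at most 0.128 to 0.218 CPM in a library (3 counts, counting error only). Ihh had 0 counts in the 4 controls and 4, 43, 0 and 14 counts across cKO. Dhh had 6 counts in control S7, 3 in cKO S8 and 0 elsewhere. None of the 3 ligand genes passed the filter on low counts.

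Among genes of ligand maturation and release, Scube1, a secreted protein that helps release lipid-bearing Hedgehog from cells in concert with Disp1, had the largest fold change among the 36 tested genes of the wider list. It was at 10.5, 10.99, 8.24 and 9.95 CPM in the controls, against 4.29, 1.09, 0.171 and 0.642 CPM in cKO. The groups did not overlap, but cKO S3 held 84 counts against 3 to 24 in the other cKO libraries. The log2 fold change was −2.68 (SE 0.72), with an adjusted p of 0.189 in edgeR's quasi-likelihood test. Without cKO S3 the log2 fold change was −3.93 with an adjusted p of 0.0271 by the same edgeR test, and 0.0271 to 0.442 was the range when any 1 library was dropped. In the authors' deposited table its adjusted p was 0.00896. Disp1, the ligand exporter, was at 15.1 CPM ± 8.39 in control and 26.8 ± 13.7 in cKO libraries (SD, n = 4 each), with an adjusted p of 0.616 by the edgeR test.

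Of the 24 cytoplasmic and ciliary regulators, 14 had a fold change below 0 and 10 above, with a median of −0.04 on the log2 scale. Spop, an adaptor of the ubiquitin ligase that degrades Gli proteins, was at 50.3 CPM ± 14.3 in control and 77.6 ± 15.1 in cKO libraries (SD, n = 4 each), with overlapping libraries and an adjusted p of 0.376 by edgeR's quasi-likelihood test. Stk36, a kinase homologous to fly Fused, was at 10.8 CPM ± 3.92 and 16.4 ± 9.84 (SD, n = 4 each), with an adjusted p of 0.683 by the same edgeR test. Sufu, the main brake on Gli proteins, was at 21.5 CPM ± 5.80 and 20.2 ± 4.89 (SD, n = 4 each).

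Among further targets and ligand binding proteins, Ccnd1, Gpc3 and Foxf1 were uneven between libraries. Ccnd1, encoding cyclin D1, was at 6.34, 10.5, 16.7 and 57.0 CPM in the controls and at 6.62 to 18.9 CPM in cKO. Control S7 set its mean, since the log2 fold change was −0.998 with all libraries and 0.03 without S7. Gpc3, a glypican that competes with Ptch1 for ligand, was at 34.4 CPM in control S6 and 1.46 to 4.44 CPM in the other controls, against 0.0907 to 5.44 CPM in cKO. Without control S6 its log2 fold change went from −1.96 to 0.12. Foxf1 held 37, 15, 4 and 0 counts in the controls and 0 to 3 counts in cKO libraries, too few to be tested.

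**Figure D5:**
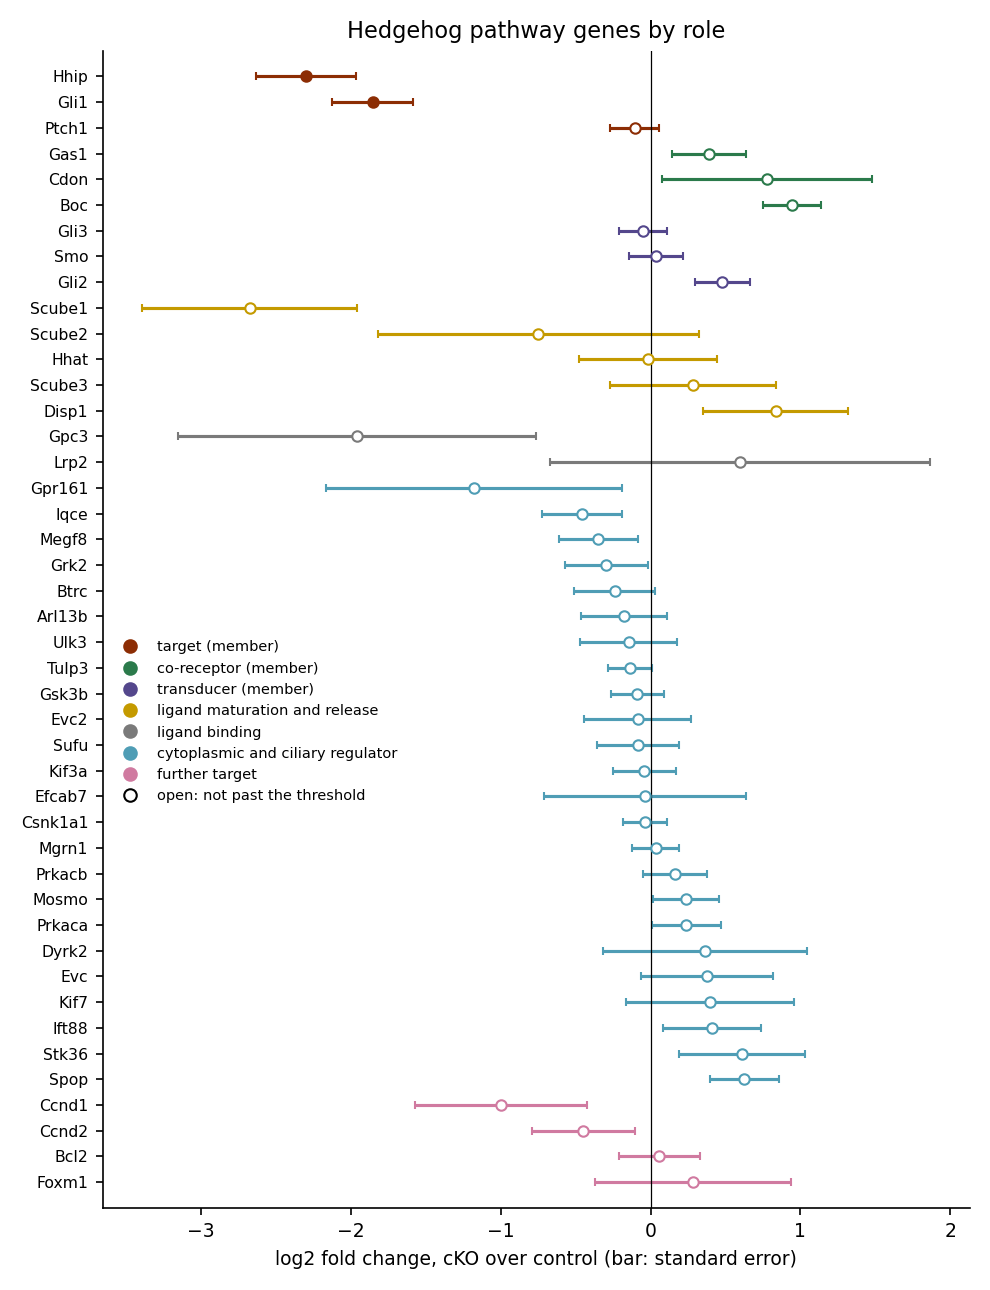
Log2 fold change, cKO over control, of the 9 members and 35 of the 36 tested genes of the wider list, ordered by role, with standard errors; filled points are past an adjusted p of 0.05. Only Gli1 and Hhip are filled, and Scube1 (−2.68) has the lowest value with a wider error than either.

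The genes whose log2 CPM followed the targets most closely over the 8 libraries were sought among 9490 others with a mean of at least 5 CPM. Frem1, which encodes an extracellular matrix protein, was nearest to Gli1 with a Pearson correlation of 0.96, followed by Adgrg6 (0.95), Celsr2 (0.95) and Mtx3 (0.95). These values carry the group difference, and with group means removed they were 0.77, 0.79, 0.89 and 0.59. Frem1 was at 66.8 CPM ± 21.9 in control and 20.6 ± 3.32 in cKO libraries (SD, n = 4 each), with an adjusted p of 0.0151 by edgeR's quasi-likelihood test that passed in 3 of the 8 fits with a library left out (0.00259 to 0.0812). Among the 4 nearest to Hhip were Mtx3 (0.98), Ror1 (0.98) and Psma6 (0.97), and Gli1 ranked 34 with 0.92. With group means removed these were 0.83, 0.94, 0.90 and 0.33. Ptch1 was nearest to Cdip1 (0.96), Ipo4 (0.95), Dcaf15 (0.95) and Hadh (0.93). With group means removed these were 0.94 to 0.96. Their log2 fold changes lay between −0.30 and −0.07, and the correlation of Ptch1 with Gli1 was 0.01. The order among so many genes over 8 libraries is a description and carries no test.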

How the data were processed

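RNA-seq libraries of 8 sorted samples were compared, 4 control and 4 cKO, grouped by sample title. The authors deposited raw gene counts (TopHat2 2.0.11, Bowtie2 2.2.3 and HTSeq 0.6.1p1 on GRCm38, per the submitters' processing notes), FPKM values (Cuffnorm, Cufflinks 2.2.1, per the same notes) and a DESeq2 1.14.1 comparison. Per the file headers, the last held group means of scaled counts (a signal value per gene and group), a log2 fold change, its standard error and Wald statistic (scores) and p-values. Annotation release and strand setting are not given in the sources used here.

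The 5 summary lines of each count table, 56.4% to 61.7% of reads, were left out. Of the 8 FPKM columns, 3 tracked the like-named count library best, and all 8 tracked one of their own group, so FPKM values were used by group only. Counts were fitted with edgeR 4.0.16 (quasi-likelihood, TMM, filterByExpr, no covariate) with Benjamini-Hochberg adjustment over 14757 genes and a threshold of 0.05, checked on simulated data. The standard error was derived from the F statistic. Intervals are 95%. Nothing says how animals map to libraries beyond the word replicate, so errors measure the spread between these libraries. Alternatives were RLE factors, library totals, DESeq2 1.42.0, limma-voom 3.58.1, a looser filter (1 count in any library) and a stricter one (10 in every library), and leaving out each library. Coordinates are from GENCODE mouse release 21. R 4.3.3 and Python 3.11.15 were used.

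The members and lists were chosen with earlier results of these data known. Named were Kcnj10, the 9 members, the 6 wider-list genes with the largest change at a mean of at least 5 CPM together with any past the threshold (up to 8), and the 4 genes most correlated with each target (log2 CPM with a prior count of 2, leaving out predicted genes, clones and pseudogenes). Sufu, Foxf1 and the ligands were named after their values were seen. Results for some genes these rules cover are not reported here.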

Additional observations from a re-analysis of the deposited data

Results flagged for a closer look

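Of 74 sets of 4 libraries, 8 held a library far from the rest, and chance alone flags about 3.7. For pathway genes, Gpc3 was at 34.4 CPM in control S6 against 1.46 to 4.44 in the other controls, and Spop was at 55.0457 CPM in cKO S8 against 83.1 to 87.2 in the other cKO libraries. For genes that followed Gli1, Frem1 was at 25.5 CPM in cKO S3 against 18.5 to 19.6, and Celsr2 at 110.3 CPM in cKO S5 against 154 to 155. For summed marker levels, astrocyte markers were at 24255 CPM in cKO S4 against 19761 to 19998, oligodendrocyte precursor markers at 424 CPM in cKO S3 against 182 to 211, neuronal markers at 54.4 CPM in cKO S5 against 33.0 to 34.9, and mural markers at 29.7 CPM in control S7 against 47.4 to 49.1. None of the 9 Hedgehog genes had such a library.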

How the results depend on the processing

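Against 47 changed genes, DESeq2 called 306, at least 1 count in any library gave 87 and at least 10 counts in every library 84, containing 47, 47 and 41 of the 47. Leaving out 1 library gave 4 to 45 genes, with 4 without cKO S4, 14 without control S2, 16 without control S6, 24 without cKO S5, 28 without cKO S8 and 30 without control S1. Against 2 Hedgehog members called, these fits gave 0 to 2. In the wider list, DESeq2 called 1 gene against 0, and leaving out 1 library gave 0 to 1. With library totals the sign turned for Gli3 (0.0493), Cdip1 (0.0319) and Hadh (0.0062). Across the fits with 1 library left out, signs also turned for Gli3 (−0.127 to 0.0523), Smo (−0.0619 to 0.13), Gpc3 (−2.56 to 0.12), Ccnd1 (−1.35 to 0.0330), Cdip1 (−0.145 to 0.0014) and Hadh (−0.25 to 0.10). The cause was not tested. No paired analysis was possible because the groups share no replicate number. The ligand genes and Foxf1 had too few counts to be tested.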
